A study of Homo sapiens with 12 samples.

Results

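The NR4A receptors are the genes NR4A1, NR4A2 and NR4A3, selected by gene name as 3 of the 20263 genes counted in the whole table. They were followed over 4 treatment groups of A375 cells, an established human melanoma line, with 3 libraries in each group. The groups were untreated wild-type cells (Ctrl), cells given DdBIC, cells given hemin, and cells given DdBIC together with hemin (both). DdBIC, written DBIC in the labels, is a dodecyl benzimidazole carboxylate that the study follows as a ligand of Nur77, the protein of NR4A1, and hemin is a form of heme that cells take up. The study gives doses and times for its other assays, but those of the RNA-seq libraries are not given in the sources used here. The labels do not say whether the libraries of a group came from separate cultures. The study describes its data in general as coming from independent experiments, without naming these libraries, so p-values measure the spread between these samples, which may be in part technical. All of the libraries came from 1 cell line, and in bulk RNA fewer cells with a transcript and less of it per cell cannot be told apart.

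NR4A proteins are orphan nuclear receptors, transcription factors with the fold of a hormone receptor but a ligand pocket that is largely filled by side chains. Their activity is therefore set mainly by how much of them is made, and their genes are classical immediate early genes, switched on for a short time by growth factors, calcium, stress and cAMP. In melanocytes they are known as targets of MC1R and cAMP signaling, and outside the nucleus Nur77 can move to mitochondria, which is where the study places it.

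The total count was 37951275 to 44358912 per library, and 14287 genes were left after the edgeR filter on low counts, all 3 NR4A genes among them. Levels between libraries are given as CPM, read counts scaled by library size and TMM factor, and 3 counts in a library, the most that a count of 0 allows, came to 0.0684 to 0.0784 CPM. Genes were called changed at an edgeR quasi-likelihood p, adjusted by Benjamini-Hochberg over the 14287 genes, under 0.05. HMOX1, which encodes heme oxygenase and is induced by heme, was at 7.26 to 9.19 CPM in the 6 libraries without hemin, at 61.9 to 65.5 with hemin and at 146 to 188 with both, so every library labelled as given hemin lay above every other. Of the melanoma markers, SOX10 (548 to 769 CPM), AXL (450 to 556) and PRAME (110 to 136) were high, whereas the pigment genes were low or missing, with PMEL at 1.11 CPM or less, MLANA at 0.435 or less and TYR at 0 in 10 of 12 libraries. Of 5 leukocyte markers 2, among them PTPRC, were at 0 in all 12 libraries, whereas CD14 (0.409 to 1.30 CPM) and LYZ (1.35 to 2.19 CPM) had reads in each. The summed level of the 5 ranged from 2.15 to 3.23 CPM in untreated and from 2.16 to 3.31 in DdBIC libraries. It lay between 2.22 and 2.38 CPM after hemin alone and between 2.24 and 2.80 after the combination. Some other markers were called changed with DdBIC. The summed level of 4 endothelial and fibroblast markers was 11.03 to 11.7 CPM in untreated libraries and lower, at 8.53 to 9.17, in those given DdBIC. These did not overlap, as was so in this direction for 24.1% of all genes. The sum was 10.8 to 13.2 after hemin alone and 10.3 to 11.4 after the combination. Most of it came from LUM, a matrix proteoglycan gene, with means of 8.63 CPM in Ctrl and 6.55 with DdBIC. Of these 4 only LUM was called. It was lower in DdBIC against Ctrl (log2 -0.40) and higher in both against DdBIC (0.43), beside 17.2% and 13.5% of all genes. Of 8 melanoma markers tested, SOX10 (0.23) and PMEL (0.90) were called higher with DdBIC, and S100B (-0.36), PRAME (-0.26) and AXL (-0.16) lower. Of all genes, 20.0% were called higher and 17.2% lower there. With DdBIC the call on PMEL was lost in 7 of 20 alternatives (adjusted p up to 0.112), that on S100B in 4 of 20 (up to 0.0852), and that on LUM without Ctrl replicate 1 (0.0504). The part of these markers in the NR4A results was not tested. The share of higher genes among the calls moved with the scaling, from 53.8% to 39.95% under upper-quartile normalization for DdBIC against Ctrl, from 42.4% to 59.2% for both against DdBIC, and from 38.5% to 55.4% for the interaction. With library size only it moved from 45.6% to 34.4% for both against Ctrl and from 54.6% to 42.3% for both against hemin.

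On GRCh38, NR4A1 (ENSG00000123358) spans chr12:52022832-52059507 on the plus strand, NR4A2 (ENSG00000153234) chr2:156324432-156342348 on the minus strand and NR4A3 (ENSG00000119508) chr9:99821855-99866891 on the plus strand. GENCODE 29 gives the same ends, with 22, 10 and 4 transcripts in turn. No stretch longer than 20 bases is identical between transcripts of any pair of members, so an exactly matched read longer than this belongs to only 1 of them. Exons of NR4A1 overlap a long noncoding RNA, AC025259.3, on the opposite strand, and since the use of strand in the counting is not given in the sources used here, reads from it could have been counted as NR4A1. NR4A2 and NR4A3 overlap no other gene's exons.

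Because cAMP signaling acts through CREB, which binds TGACGTCA or the shorter TGACG, the RefSeq promoter windows (GRCh38.p14, 250 bases before to 50 after a start) were searched on both strands. Windows were found by symbol for NR4A1 (2 starts) and NR4A3 (1 start). The NR4A3 window, chr9:99821635-99821934 on the plus strand, held 4 matches to TGACG or its reverse complement CGTCA. The part of it before the first annotated base of the gene, chr9:99821635-99821854 on the plus strand, is shown because 3 of the matches, in capitals, lie within it.
NR4A3: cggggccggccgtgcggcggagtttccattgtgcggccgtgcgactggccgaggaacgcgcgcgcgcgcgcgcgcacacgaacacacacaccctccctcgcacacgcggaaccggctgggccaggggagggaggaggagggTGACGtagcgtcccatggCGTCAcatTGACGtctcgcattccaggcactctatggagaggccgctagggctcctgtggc
These 3 matches begin 109, 91 and 83 bases before the RefSeq start. The 2 NR4A1 windows, chr12:52022582-52022881 and chr12:52037465-52037764, held none, which says only that these letters are not in these windows, since NR4A1 has 19 annotated start sites. The first of them is shown for comparison, up to the gene's first base, chr12:52022582-52022831 on the plus strand.
NR4A1: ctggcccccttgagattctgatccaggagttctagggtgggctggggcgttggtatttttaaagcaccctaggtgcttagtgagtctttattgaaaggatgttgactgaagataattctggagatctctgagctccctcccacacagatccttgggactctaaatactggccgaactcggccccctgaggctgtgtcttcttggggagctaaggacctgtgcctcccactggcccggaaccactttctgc
The letters TGACG or CGTCA were in 24.6% of all 35116 windows, in 30.8% of the windows of tested genes and in 36.5% of those of genes higher with DdBIC. At least 3 matches were in 1.40% of all windows, 2.12% of those of tested genes, 3.28% of those of genes higher with DdBIC and 9.09% (3 of 33) of those of the immediate early genes listed further on. The full TGACGTCA (in 1.85% of all windows, and counted among the TGACG matches), the site that NR4A monomers bind, AAAGGTCA (1.22%), and the CArG box of SRF (1.29%) were in none of the 3 NR4A windows.

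NR4A1 was by far the most abundant of the 3 transcripts. Levels between genes were compared per length, with the deposited TPM. In untreated cells NR4A1 was at 235 ± 18.05 TPM (SD, n = 3), NR4A2 at 8.03 ± 1.48 and NR4A3 at 0.729 ± 0.188. The lowest NR4A1 value in Ctrl, 224, lay far above the highest NR4A2 value, 9.49, and the lowest NR4A2 value, 6.53, above the highest NR4A3 value, 0.927. This order held in each of the 12 libraries. NR4A1 made up 96.4% ± 0.311 of the summed TPM of the 3 genes in Ctrl and 96.7% ± 0.249 with DdBIC (SD, n = 3). Its share was 98.1% ± 0.569 after hemin and 98.5% ± 0.242 after the combination (SD, n = 3). The length behind a TPM value was not the same in every library and varied by a factor of 1.18 for NR4A1, 1.43 for NR4A2 and 1.79 for NR4A3, against a median of 1.09 over 10121 well counted genes. For NR4A3 this length, on a relative scale, differed between groups. It was 1.99 to 2.05 with hemin, 1.27 to 1.54 with both and 1.4513 to 1.5045 with DdBIC. In Ctrl it was 1.16, 1.1975 and 2.08. Ratios of NR4A3 in TPM carry these lengths, whereas those in CPM do not. The part of the lengths in the TPM ratios was not tested.

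**Figure D1:**
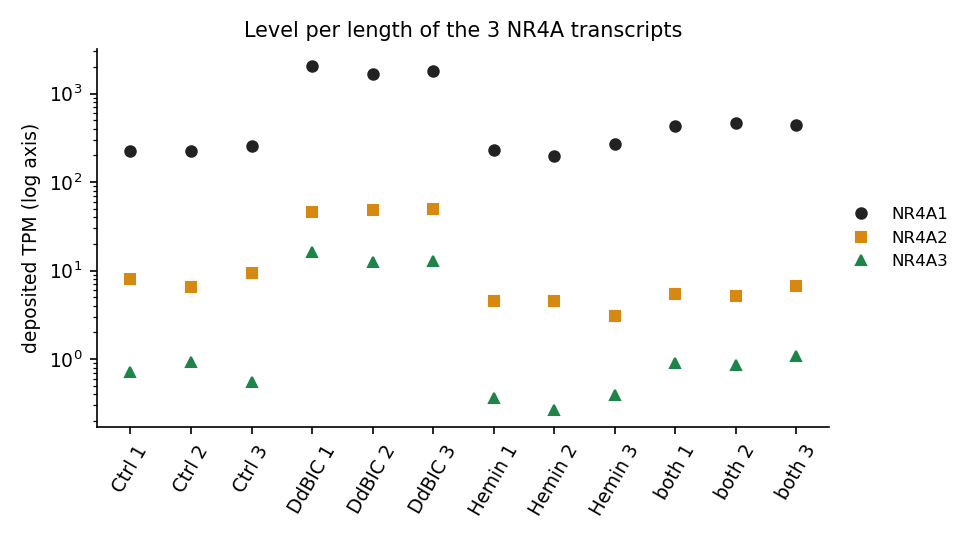
Deposited TPM (per length, log axis) of NR4A1, NR4A2 and NR4A3 in each of the 12 libraries, in groups of 3. NR4A1 lies above NR4A2, and NR4A2 above NR4A3, in every library, for example at 197 against 4.497 and 0.267 in hemin replicate 2 and at 2030 against 46.3 and 16.3 in DdBIC replicate 1.

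In other assays, the study reports that DdBIC raised the expression of Nur77 with dose and time. Whether DdBIC, the ligand of Nur77, also changed the RNA of its receptor family was asked by comparing DdBIC with Ctrl. All 3 NR4A transcripts rose, NR4A3 by 19.9-fold, NR4A1 by 7.68-fold and NR4A2 by 6.53-fold, against 20.0% of all tested genes called higher. NR4A1, which encodes Nur77, was at 204, 199 and 208 CPM in the Ctrl libraries and at 1634, 1551 and 1511 with DdBIC. The groups lay far apart, as the raw count went from 7919 to 8217 reads up to 63042 to 63929 reads. Of all genes, 25.9% had each DdBIC library above each Ctrl library. Its log2 fold change was 2.94 (SE 0.052, adjusted p = 1.1e-10 by edgeR), the 64th highest of the 14287 genes by size.

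NR4A2 encodes Nurr1, a receptor known for its part in the making of dopamine neurons. It was at 7.64, 8.34 and 9.67 CPM in Ctrl and at 57.2, 50.5 and 59.97 with DdBIC, and the groups did not overlap, as was so in this direction for 25.9% of all genes. The fitted log2 change was 2.71 (SE 0.11, adjusted p = 1.4e-08 by edgeR), with 308 to 378 reads behind each Ctrl value. NR4A3 encodes NOR1, which is fused to EWSR1 in extraskeletal myxoid chondrosarcoma. It was at 1.09, 1.49 and 1.54 CPM in Ctrl and at 31.6, 25.5 and 24.9 with DdBIC. From the lowest level of the 3 it had the largest rise, with a log2 fold change of 4.32 (SE 0.163, adjusted p = 8.02e-09 by edgeR), the 29th highest of all genes, although only 44 to 60 reads lay behind each Ctrl value.

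**Figure D2:**
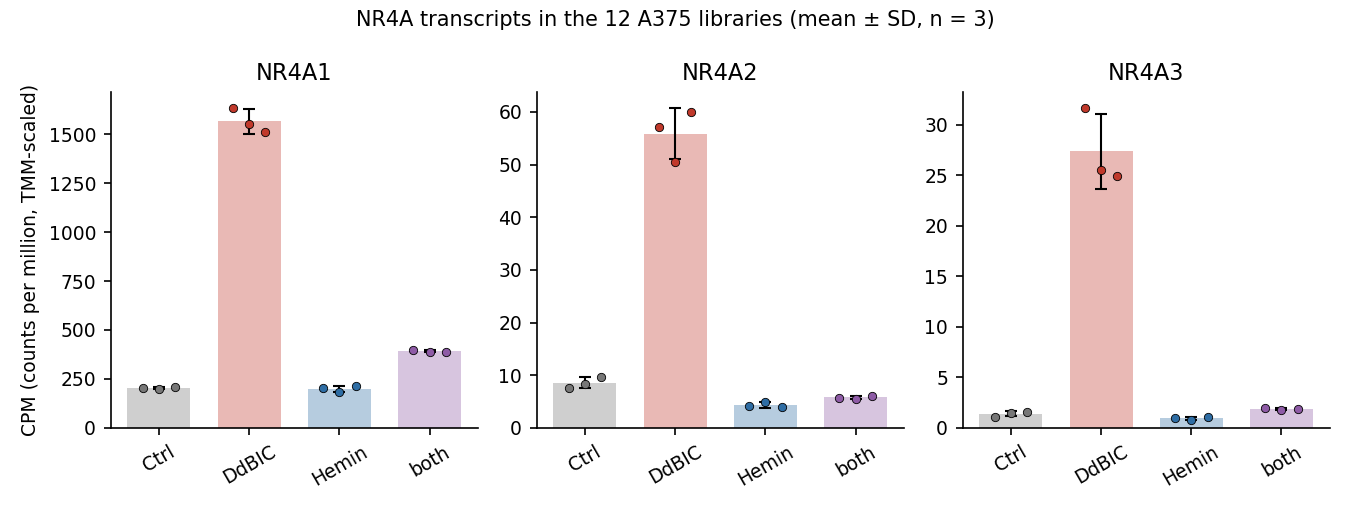
TMM-scaled CPM of each NR4A transcript in the 4 groups, with points for libraries, bars for the mean and error bars for the SD (n = 3). Each panel has its own linear axis from 0. The DdBIC libraries stand above all others in every panel, and the libraries with both have a mean below that of Ctrl for NR4A2 (5.77 against 8.55) and above it for NR4A1 (391.7 against 203.7), with NR4A3 at 1.84 against 1.37.

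With hemin alone 1 of the 3 genes was called. NR4A2 fell to 0.505 of its Ctrl level, against 2.59% of all genes called lower, while NR4A1 and NR4A3 did not pass the test. NR4A2 was at 4.20, 4.87 and 3.87 CPM with hemin, below all of its Ctrl libraries, as 12.9% of all genes were. Its log2 fold change was -0.99 (SE 0.111, adjusted p = 0.000713 by edgeR), the 9th lowest among the 580 genes called in this comparison. Without hemin replicate 2 only 272 genes were called, and NR4A2 was still among them. NR4A1 was at 204, 183 and 213 CPM with hemin. That range encloses the Ctrl values, and the log2 fold change was -0.028 (SE 0.049, adjusted p = 0.845 by edgeR).

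NR4A3 was at 0.962, 0.742 and 1.07 CPM with hemin, from 30 to 41 reads. These lay just below the lowest Ctrl value of 1.09, again beside 12.9% of all genes, and the log2 fold change of -0.57 (SE 0.177) had an edgeR adjusted p of 0.113.

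Hemin supplies heme to cells treated with DdBIC, and the comparison of both with DdBIC alone asks what became of the rise. All 3 transcripts fell, by 3.997-fold for NR4A1, 9.68-fold for NR4A2 and 14.8-fold for NR4A3, against 18.4% of all genes called lower. NR4A1 was at 399, 387 and 389 CPM with both, well below the 1511 of the lowest DdBIC library, where 24.4% of all genes had no overlap in this direction. Its log2 change was -1.999 (SE 0.050, adjusted p = 9.79e-10 by edgeR). NR4A2 was at 5.71, 5.47 and 6.13 CPM with both, and the log2 fold change from DdBIC was -3.27 (SE 0.113, adjusted p = 9.32e-09 by edgeR).

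NR4A3 was at 1.93, 1.72 and 1.89 CPM with both, where DdBIC alone gave 24.9 or more. The log2 fold change was -3.89 (SE 0.158, adjusted p = 2.33e-08 by edgeR), the 18th lowest of all 14287 genes. NR4A2 was the 32nd lowest and NR4A1 the 93rd.

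Against Ctrl, the cells given both held each member at a different place. NR4A1 stayed 1.92-fold higher, with a log2 fold change of 0.94 (SE 0.049, adjusted p = 1.13e-06 by edgeR) and all 3 libraries above Ctrl, as 15.3% of all genes had. NR4A2 went the other way, 1.48-fold below Ctrl with a log2 fold change of -0.57 (SE 0.109, adjusted p = 0.00585 by edgeR) and all 3 libraries below, as 15.8% of all genes had. For NR4A3 the log2 fold change of 0.43 (SE 0.164) had an edgeR adjusted p of 0.124, although its libraries with both also lay above those of Ctrl. Of all genes, 12.4% were called in this comparison in either direction.

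In the presence of hemin, DdBIC raised the 3 transcripts far less. Compared with hemin alone, both gave a log2 fold change of 0.97 for NR4A1 (SE 0.049, adjusted p = 1.53e-06 by edgeR) and of 0.996 for NR4A3 (SE 0.172, adjusted p = 0.00545 by edgeR), and no libraries overlapped, as in this direction for 13.2% of all genes. The call on NR4A3 was lost with limma-voom (adjusted p = 0.0816). The value for NR4A2 was 0.42 (SE 0.112, adjusted p = 0.0493 by edgeR). It stood at the edge of the threshold and was past it in only 6 of 20 alternatives, with adjusted p from 0.0179 to 0.168. Of all genes, 3.71% were called higher here.

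Whether hemin altered the response to DdBIC was tested as an interaction in the fit of all 12 libraries. The response was smaller with hemin, by a log2 difference of -1.97 for NR4A1 (SE 0.069, adjusted p = 5.01e-08 by edgeR), -2.29 for NR4A2 (SE 0.155, adjusted p = 3.4e-06 by edgeR) and -3.32 for NR4A3 (SE 0.234, adjusted p = 4.42e-06 by edgeR), on the log2 scale. All 3 were called lower, as were 10.2% of all genes.

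**Figure D3:**
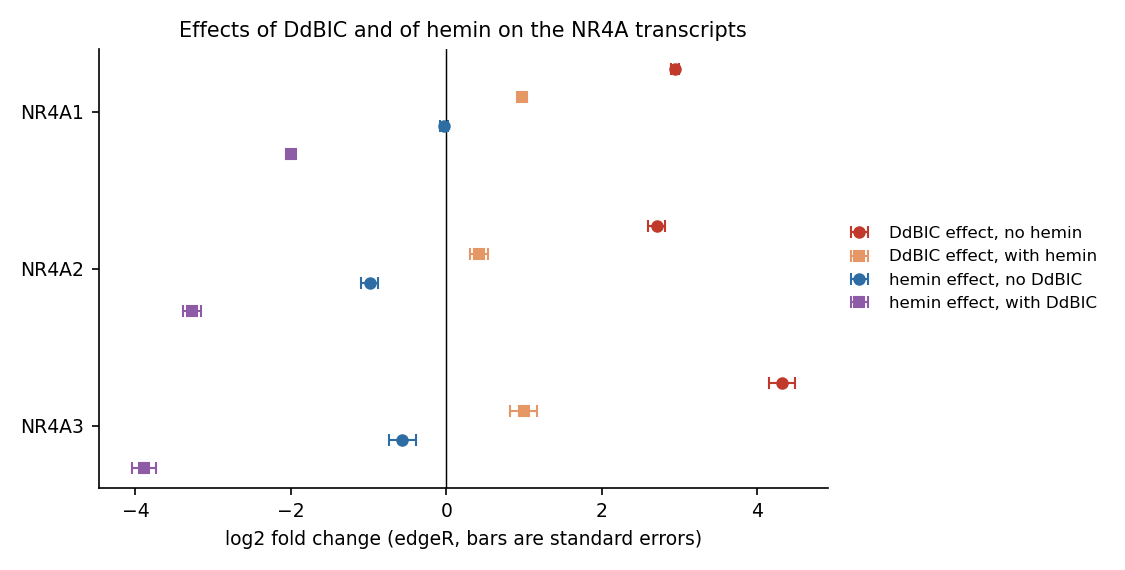
Log2 fold changes of the 3 NR4A transcripts (edgeR, bars are standard errors) for DdBIC without and with hemin and for hemin without and with DdBIC. The DdBIC effect shrinks from 2.94, 2.71 and 4.32 to 0.97, 0.42 and 0.996 for NR4A1, NR4A2 and NR4A3, and the hemin effect without DdBIC is past the threshold only for NR4A2 (-0.99).

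The members also moved against each other. The log2 ratio of NR4A3 to NR4A1 (TPM) was -8.36 ± 0.470 in Ctrl and -7.06 ± 0.1002 with DdBIC (SD, n = 3), a change of 1.30. That of NR4A2 to NR4A1 was -4.89 ± 0.187 in Ctrl and -5.26 ± 0.173 with DdBIC, a change of -0.37, and with CPM in place of TPM it was -0.23 with overlapping groups. With 3 libraries against 3 the two-sided exact permutation test cannot go below p = 0.1, which these TPM ratios reached.

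A test over all 12 libraries, added after the values were seen, compared libraries with and without hemin inside each DdBIC stratum (two-sided exact permutation within strata, 400 arrangements, smallest possible p = 0.005, adjusted over 6 tests). With hemin, the log2 ratio of NR4A2 to NR4A1 changed by -1.003 (exact p = 0.005, adjusted 0.0075) and that of NR4A3 to NR4A1 by -1.44 (exact p = 0.005, adjusted 0.0075), each averaged over the strata without and with DdBIC. For NR4A3 to NR4A1 the strata were not alike, as the ratio went from -8.36 to -9.42 without DdBIC and from -7.06 to -8.89 with it in TPM, and from -7.23 to -7.77 and from -5.85 to -7.73 in CPM (log2, means of 3). The ratio of NR4A3 to NR4A2 changed by -0.44 (exact p = 0.115, adjusted 0.115), and by -0.095 with CPM (exact p = 0.67). This CPM value averages strata that went opposite ways, from -2.65 up to -2.23 without DdBIC and from -1.04 down to -1.65 with it. With DdBIC, averaged over the strata without and with hemin, NR4A3 changed by 0.92 against NR4A1 (exact p = 0.005, adjusted 0.0075) in TPM and by 0.71 (exact p = 0.04, adjusted 0.048) in CPM. The strata were not alike, as the CPM ratio went from -7.23 ± 0.272 to -5.85 ± 0.135 without hemin but from -7.77 ± 0.161 to -7.73 ± 0.075 with it (log2, SD, n = 3), and in TPM from -9.42 ± 0.109 to -8.89 ± 0.224 with hemin. Against NR4A2, NR4A3 changed by 1.32 (exact p = 0.005, adjusted 0.0075) in TPM and by 1.10 (exact p = 0.005, adjusted 0.01) in CPM. Without and with hemin apart, the CPM ratio went from -2.65 ± 0.160 to -1.04 ± 0.211 without hemin and from -2.23 ± 0.441 to -1.65 ± 0.069 with it (log2, SD, n = 3). NR4A2 against NR4A1 changed by -0.40 (exact p = 0.06, adjusted 0.072) in TPM and by -0.39 (exact p = 0.01, adjusted 0.015) in CPM.

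Most other immediate early genes rose with DdBIC as well. Of 37 on a list of such genes 36 were tested, and 33 rose and 0 fell, against 20.0% called higher and 17.2% called lower of all genes. Their median log2 fold change was 2.33, where that of all genes was -0.0082. MYC (-0.37), MAFF (1.69) and IER2 (2.29) did not pass the test. With both against DdBIC, 32 of the 36 were called lower, against 18.4% of all genes, with a median of -1.82.

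Hemin alone called 4 of the 36 higher and 1 lower, against 1.47% and 2.59% of all genes, among them JUN at 0.72 and EGR3 at -0.53, and EGR3 was the only one lower, as NR4A2 was at -0.99. The call on EGR3 was lost in 6 of 20 alternatives, among them leaving out any 1 Ctrl library or hemin replicate 1 or 2, with adjusted p up to 0.121. In both against Ctrl, 21 of the 36 were higher, as NR4A1 did, against 5.66% of all genes, and 1 was lower, CCN2 at -0.50, against 6.74%.

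**Figure D4:**
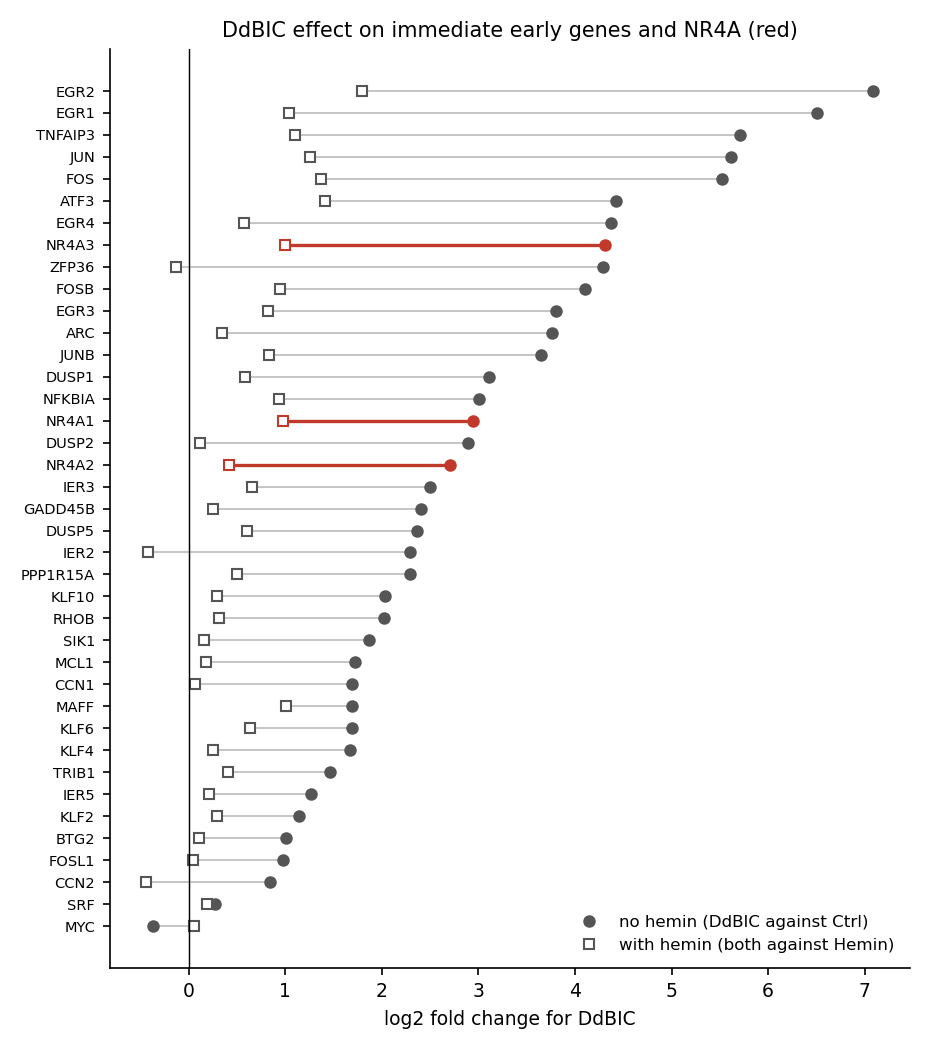
Log2 fold change for DdBIC without hemin (filled circles, DdBIC against Ctrl) and with hemin (open squares, both against hemin) for the 36 tested immediate early genes and the NR4A genes (red), joined by a line for each gene and sorted by the value without hemin. NR4A3 (4.32) lies among the upper genes next to EGR4 (4.37), NR4A1 (2.94) and NR4A2 (2.71) in the middle, and the squares of the members end at 0.97, 0.42 and 0.996.

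Likeness was measured as the root mean square difference over the 12 libraries between log2 CPM values, each taken relative to the gene's own Ctrl mean, over 12441 genes of at least 1 CPM on average. The genes nearest to NR4A1 were IL11 (0.191), a cytokine, ZC3H12A (0.201), which encodes an RNase that cuts inflammatory mRNAs, CSRNP1 (0.230), IRAK2 (0.255) and SERPINB2 (0.256). IL11 stood 2.76 above its Ctrl mean with DdBIC and 1.09 with both, where NR4A1 stood at 2.94 and 0.94. Nearest to NR4A3 were EGR3 (0.287), CXCL1 (0.294), FOSB (0.354), JUNB (0.396) and ARC (0.480), a chemokine and immediate early genes.

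For NR4A2 even the first neighbour was farther away than IL11 was from NR4A1 (0.191) or EGR3 from NR4A3 (0.287). EFNA1, an ephrin ligand, was nearest (0.455), followed by PTGS2 (0.593), the inducible cyclooxygenase, PNRC1 (0.604), NFKBIZ (0.612) and DUSP2 (0.639). EFNA1 stood at 2.21 with DdBIC, -0.47 with hemin and -0.046 with both, where NR4A2 stood at 2.70, -0.98 and -0.56. The members themselves were farther apart, at 0.772 between NR4A1 and NR4A3, 0.908 between NR4A1 and NR4A2 and 0.975 between NR4A2 and NR4A3, and the median distance of all genes to a member was 1.49 to 2.19.

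Among the genes known to switch NR4A genes on or off, 12 of 21 rose and 1 fell with DdBIC, against 20.0% higher and 17.2% lower of all genes, with a median of 0.31. These changes were small beside those of the members. HDAC9 (0.98) and MEF2C (0.88), a repressor and an activator that meet at MEF2 sites, changed most, and MC1R, the melanocortin receptor upstream of cAMP, rose by 0.40. PRKACA, the catalytic subunit of protein kinase A, was the 1 that fell (-0.20). With both against DdBIC 10 were lower and 1 higher, against 18.4% and 13.5% of all genes. Without both replicate 1, 5 in place of 10 were called lower. Of the 21, hemin alone changed only HDAC5 (-0.28), where 2.59% of all genes were called lower and 1.47% higher, and this call was lost without Ctrl replicate 2 or 3 and without hemin replicate 1 or 3, with adjusted p up to 0.0573.

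The targets of cAMP and CREB moved more, with 14 of 18 tested higher and 1 lower with DdBIC (20.0% and 17.2% of all genes) and a median of 1.12. Some of them are also immediate early genes. DUSP1, a phosphatase that turns off MAP kinases, rose by 3.10, SIK1 by 1.86 and the clock gene PER1 by 1.02. Of these, DUSP1 and SIK1 are on both lists. PDE4B was the 1 that fell (-0.40), and MITF (0.23), PDE10A (0.039) and PPARGC1A (1.48) did not pass the test. With both against DdBIC 12 of the 18 were lower and 0 higher, against 18.4% and 13.5% of all genes.

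Of 21 genes of proteins that bind NR4A receptors, 5 were higher and 6 lower with DdBIC, with a median of -0.061. Of all genes, 20.0% were higher and 17.2% lower. RXRA, the partner with which NR4A1 and NR4A2 form heterodimers, fell (-0.59), whereas RXRB (0.14) and RXRG (-0.17) did not pass the test. The coregulator FHL2 (0.67) and the kinase gene RPS6KA3 (0.56) rose. HK2, the hexokinase that the study places beside Nur77 on the way to mitochondria, rose by 0.37, and SDHA, its partner there, fell by 0.13 on the log2 scale. Of 8 tested genes on that route 2 rose, the other being EIF2AK3, the gene of PERK (1.13), and 3 fell, all of them subunits of succinate dehydrogenase, beside 20.0% and 17.2% of all genes. GZMB, GSDMC and SDHD had at most 8, 6 and 6 reads in any library and were not tested. The study reports that DdBIC raised GZMB mRNA and protein and led to cleavage of the GSDMC protein. Reads as few as these could not be compared with those results. For SDHD, a subunit of the same complex as SDHB (175 CPM in Ctrl) and SDHC (95.7 CPM), whether so few reads reflect its expression was not tested.

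Of 30 reported targets of NR4A receptors 20 were tested, and with DdBIC 7 were higher and 4 lower, where 20.0% and 17.2% of all genes were, with a median of 0.019 against -0.0082 for all genes. NFKBIA, the inhibitor of NF-κB, which is also an immediate early gene, rose by 3.01 and the neurotrophin gene BDNF by 1.06. SPP1 (-0.42) and IDH1 (-0.41) fell. AAAGGTCA was in 1 of the 37 promoter windows of these targets and in 0.816% of the windows of tested genes.

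**Figure D5:**
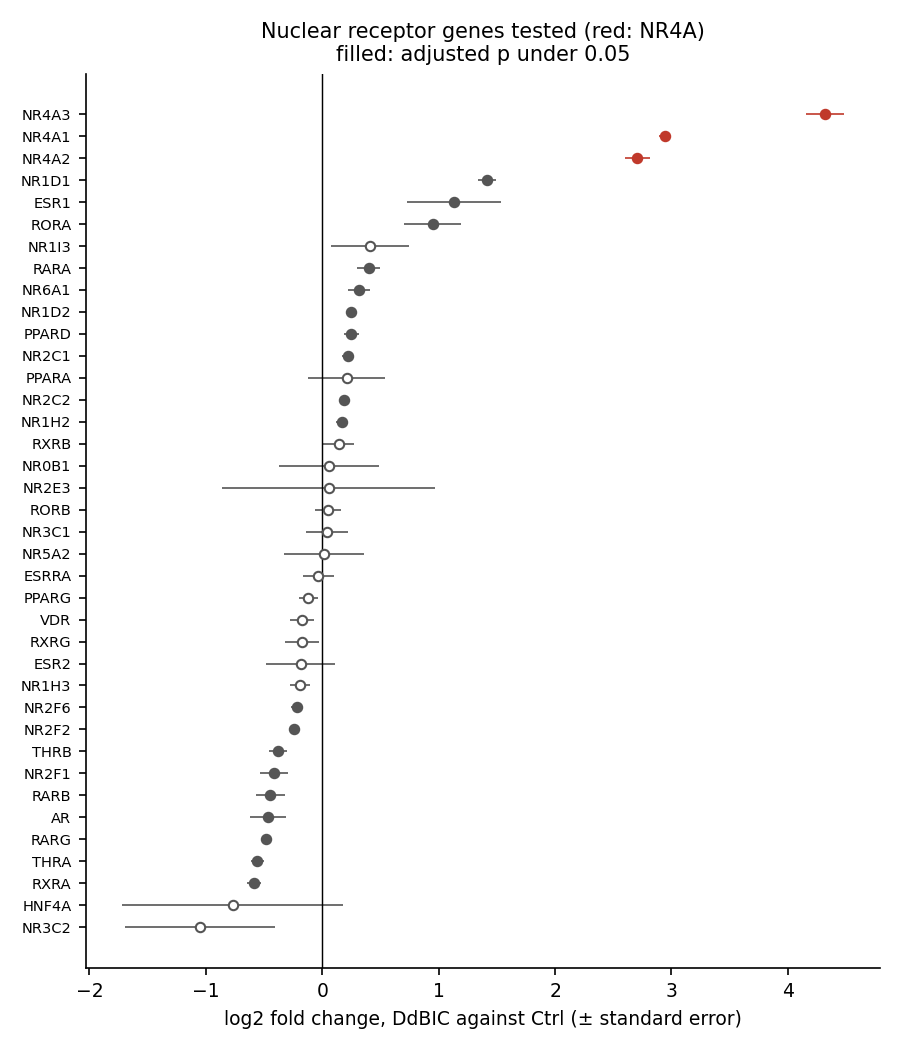
Log2 fold change for DdBIC against Ctrl (± standard error) of the 35 tested nuclear receptors outside the family and the 3 NR4A genes (red), with filled points for an adjusted p under 0.05. The NR4A genes stand at 2.71 to 4.32, and the highest of the others is NR1D1 at 1.41.

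Of the nuclear receptors tested, the NR4A genes had the 3 highest values with DdBIC. Of 45 others, 35 were tested, 10 were higher and 9 lower with DdBIC, beside 20.0% and 17.2% of all genes, and the median was 0.013. NR1D1, the heme-binding clock receptor REV-ERBα, had the highest value at 1.41 and went from 39.3 ± 1.51 to 105 ± 9.48 CPM (SD, n = 3). ESR1 followed at 1.13, from a level under 1 CPM, and its call was lost in 12 of 19 alternatives, 7 of them fits without 1 library, with adjusted p up to 0.171. The thyroid hormone receptor THRA (-0.56) and the retinoic acid receptor RARG (-0.49) fell. With hemin alone 4 of the 35 were lower and 0 higher (2.59% and 1.47% of all genes), among the 4 RARB (-0.73) and RARG (-0.36), and none of the called ones fell by as much as NR4A2.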

How the data were processed

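RNA-seq of A375 cells gave 12 libraries in 4 groups, taken from the sample labels. The authors deposited 1 table of 20263 genes with positions on GRCh38 and, for each library, raw read counts, TPM values and FPKM values, both scaled by length. The submitters' processing notes name Trim Galore, Subread, featureCounts and hg38, and versions, annotation and the use of strand are not given in the sources used here. The tests on counts used edgeR 4.0.16 under R 4.3.3 (filterByExpr, TMM, robust quasi-likelihood fit with 1 mean per group, 8 residual degrees of freedom, Benjamini-Hochberg adjustment). Standard errors (SE) divide the size of the log2 fold change by the root of F. The deposited TPM served to compare levels between the NR4A genes, and FPKM was not used. The members, the gene lists and the tests were chosen with earlier results of these data known. Named genes are the members, genes on the lists, and the 5 genes nearest to each member (prior count 2). Ratios were tested by exact permutation. Alternatives were DESeq2 1.42.0, limma 3.58.1 (voom), other scalings and filters, fits of only the groups compared, a replicate block and leaving out each library. The steps were tested on simulated data.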

Additional observations from a re-analysis of the deposited data

Results flagged for a closer look

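The effect of DdBIC on the 3 NR4A transcripts differed between cells with and without hemin by a test of the difference itself (edgeR interaction over 12 libraries). The DdBIC effect was 2.94 without and 0.97 with hemin for NR4A1, a difference of -1.97. It was 2.71 and 0.42 for NR4A2, a difference of -2.29, and 4.32 and 0.996 for NR4A3, a difference of -3.32. HMOX1 was at 61.9 to 65.5 CPM with hemin alone and at 146 to 188 with both, and the part of that difference in these results was not tested.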

How the results depend on the processing

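The calls of DdBIC against Ctrl, both against DdBIC and the interaction kept their direction and stayed past the threshold for NR4A1, NR4A2 and NR4A3 in every alternative run (20, 20 and 19), and so did NR4A2 in hemin against Ctrl (-1.08 to -0.89). NR4A1 in hemin against Ctrl was not called in any and ranged from -0.075 to 0.031 when 1 library was left out, changing sign without hemin replicate 2. For NR4A2 in both against hemin the call was lost with limma-voom (0.42), no filter (0.42), upper-quartile scaling (0.41), library size alone (0.397), a fit of only the groups compared (0.42) and 8 of the 12 fits without 1 library (0.35 to 0.52 over the 12). For NR4A3 there it was lost with limma-voom (1.01, adjusted p = 0.0816). In hemin against Ctrl, 580 genes were called, and 272 (without hemin replicate 2) to 623 when 1 library was left out. In both against hemin, 971 were called, 569 with only those groups fitted, and 612 (without both replicate 1) to 934 with 1 library left out. In the ratio of NR4A2 to NR4A1 the change with DdBIC over both strata was -0.39 in CPM, past the threshold.

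Samples with the same number did not visibly deviate together (correlations of -0.046 to 0.081, beside -0.070 to 0.076 for different numbers). The numbers were therefore not treated as pairs in the main fit, although with 3 libraries per group a weak pairing could have been missed. With the number as a replicate block NR4A2 in both against hemin was 0.41 (adjusted p = 0.0807), and no other call on a member changed. The count of calls in hemin against Ctrl was 408 with the block. For NR4A3, 30 to 60 reads lie behind each value without DdBIC or with hemin alone, and this limits what could be detected.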
